A study of Mus musculus with 6 samples.

Results

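miR-210 is the microRNA most closely tied to low oxygen, and it was measured here in mouse embryoid bodies, which are clumps of differentiating embryonic stem cells. It was chosen by its values in these data, because it was lower in both mutant groups than in wild type. The array design has 1 probe for it (mmu-miR-210), printed 4 times per array, which is 1 of 334 mouse microRNA probes, and its 24 spots on 6 arrays are the data described here. The stem cells were of strain 129S7/SvEv Brd-Hprt b-m2 and carried human BRCA1 as wild type (WT) or with the missense change M1652I (MI) or R1699Q (RQ), and all embryoid bodies were collected on day 7. Each group had 2 arrays, which the labels call biological replicates without saying whether they came from separate cultures, so a p-value here measures the spread among these arrays alone, and that spread may be technical. Feeder cells were removed on gelatin before aggregation, and no treatment with low oxygen is named in the labels.

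Each array had 2 colours. Cy3 carried the RNA of the group itself and Cy5 carried RNA labelled as wild-type embryoid bodies, the common reference of all 6 arrays, with no dye swap. All arrays lay on 1 slide and came from 1 scan. The slide has a pair of rows, with the WT arrays in the first and all mutant arrays in the second, so that a difference of WT from the mutants and one of slide row cannot be told apart. RQ and MI shared their row. Cy3 was well above background for 241 to 255 of the 334 probes and Cy5 for 262 to 271. In bulk RNA, fewer cells that make a microRNA and less of it per cell cannot be told apart.

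A microRNA is a strand of a short duplex that is cut from a hairpin transcript. Its seed, bases 2 to 8, pairs with messenger RNAs and lowers their translation or stability. The gene of miR-210 is switched on by the hypoxia-inducible factor HIF1A when oxygen falls, and among its known targets are the iron-sulphur cluster scaffold ISCU, the cell cycle factor E2F3 and the recombination factor RAD52. The human protein in these cells, BRCA1, is itself a recombination and checkpoint factor, and its C-terminal BRCT repeats hold both missense changes.

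The sequences below show which strand the array reported. They are from RefSeq on GRCm38.p6, apart from the probe, which is from the deposited files. Mir210 lies on chromosome 7, and its hairpin spans chr7:141221384-141221493 on the minus strand. The nearest neighbours in the same annotation are Rassf7, Lmntd2, Gm51460 and Phrf1, all protein-coding. In the mature strand, chr7:141221407-141221428, capitals mark the seed. In the hairpin they mark that mature strand, and in the probe the part complementary to it.
miR-210-3p: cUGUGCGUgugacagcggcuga
hairpin of Mir210: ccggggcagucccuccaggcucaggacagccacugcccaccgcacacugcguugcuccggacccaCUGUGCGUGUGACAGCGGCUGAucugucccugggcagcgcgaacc
miR-210 probe: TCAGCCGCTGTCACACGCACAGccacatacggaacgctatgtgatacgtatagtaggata

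The first 22 bases of the 60-base probe were the exact complement of miR-210-3p, and the remaining 38 were the stem shared by the probes. The other arm, miR-210-5p, occupies bases 28 to 49 of the hairpin and was not what this probe reads. Of the 22 bases of miR-210, 14 were G or C, a GC share of 63.6%, against a median of 45.6% over the mouse probes. An equal or higher GC share was held by 51 of the other 333 probes. The seed UGUGCGU belonged to 1 of the 1738 mature mouse microRNAs in the RefSeq table, miR-210 itself, so there is no seed family to compare it with.

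Among the other mouse probes, the longest run of bases shared with miR-210 was 10, in miR-468, followed by 9 in miR-801 and 8 in miR-122a. The stretches that the first 2 of these probes read are shown because they hold the seed letters of miR-210 away from their own seed position. They are the reverse complements of the deposited probe sequences, with the shared run in capitals.
miR-468: tatgactgaTGTGCGTGTGtctg
miR-801: attgCTGTGCGTGcggaatcgac
The run occupied bases 2 to 11 of miR-210 in miR-468 and bases 1 to 9 in miR-801. Over at least 18 aligned bases, the probe nearest to that of miR-210 was miR-801, with 5 mismatches. miR-801 rose in MI by 1.35 ± 0.20 (log2, SE, 2 arrays per group; limma adjusted p = 0.0098) and in RQ by 0.78 ± 0.20 (adjusted p = 0.043), where miR-210 was lower. Their signals also moved apart on single arrays, since the net Cy3 signal of miR-801 was 483 and 488 on the WT arrays and 855, 893, 929 and 810 on the mutant arrays. The change of miR-468 was 0.37 ± 0.14 in MI and 0.34 ± 0.14 in RQ (limma adjusted p = 0.12 and 0.14), and that of miR-122a, a liver microRNA, was -0.04 ± 0.28 and -0.10 ± 0.28 (adjusted p = 0.93 and 0.81). None of these 3 probes differed between RQ and MI at an adjusted p under 0.05, with values of 0.89, 0.13 and 0.88 in the order miR-468, miR-801 and miR-122a.

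miR-210 was brightest on the WT arrays in every spot. The net Cy3 signal, the mean of a spot minus the median of its local background, was 712, 732, 621 and 634 in the 4 spots of WT replicate 1 and 495, 500, 432 and 449 in those of WT replicate 2. In MI the spots gave 194, 202, 199 and 181 on replicate 1 and 243, 241, 214 and 235 on replicate 2. In RQ they gave 322, 337, 324 and 315 on replicate 1 and 291, 329, 283 and 306 on replicate 2. In this unscaled signal the dimmest WT spot stood at 432, the RQ spots lay between 283 and 337, and the brightest MI spot was at 243. The gap from WT is what chose miR-210, and the 4 spots of an array are not replicates of its group. The group means of the array means were 572 ± 145 (SD, n = 2) in WT, 214 ± 27.8 in MI and 313 ± 15.7 in RQ, which puts MI at 0.374 and RQ at 0.548 times WT before any scaling between arrays.

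**Figure D1:**
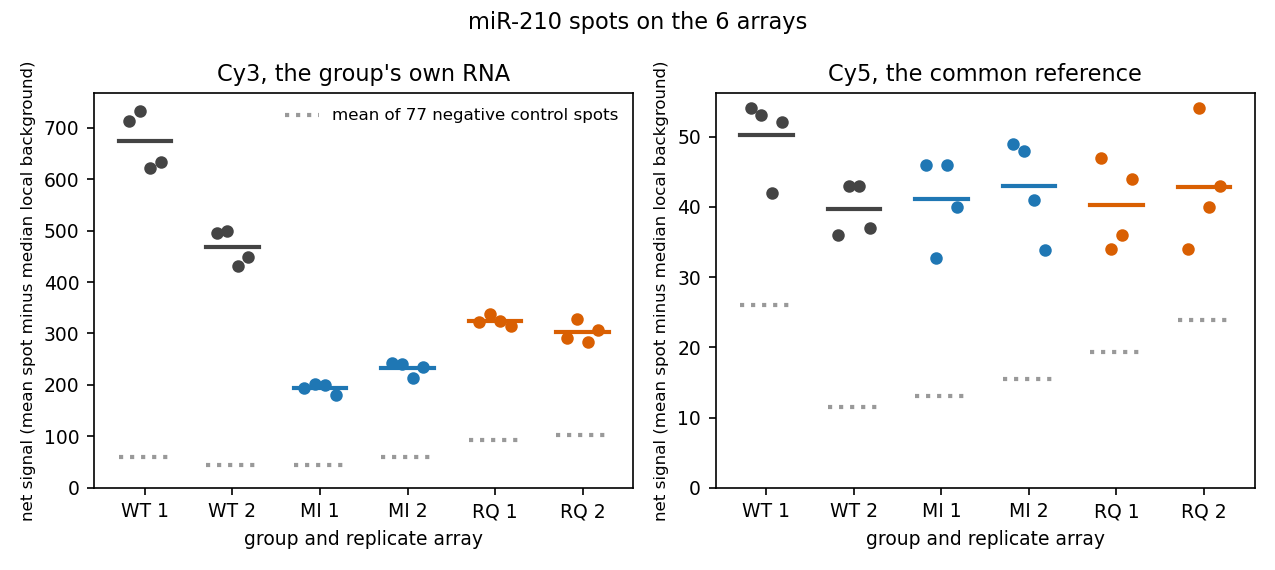
Net signal of the 4 miR-210 spots on each array (points, linear scale from 0), with the mean of the array (solid line) and the mean of its 77 negative control spots (dotted line), in Cy3 on the left and Cy5 on the right. In Cy3 all WT spots lie at 432 or higher and all mutant spots at 337 or lower, while in Cy5 the spots of all 6 arrays lie between 32.7 and 54.

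The reference channel was dim for miR-210 and close to level. The net Cy5 signal averaged 50.3 and 39.8 on the WT arrays, 41.2 and 43.0 on the MI arrays and 40.3 and 42.8 on the RQ arrays. Each array overlapped the others in Cy5, and the mutants' means were 0.935 (MI) and 0.922 (RQ) times that of WT. The scanner marked all 24 spots as well above background in both colours, and 0 were saturated or marked as outliers. The Cy5 signal was nevertheless only 1.79 to 3.45 times the mean of the negative control spots, against 2.94 to 11.4 times in Cy3. The spots of one array agreed more closely in Cy3, with a coefficient of variation of at most 8.21%, than in Cy5, where it reached 19.6%. The differences between the groups in the ratio of Cy3 to Cy5 moved with Cy3.

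The background of the arrays differed between the mutants. Net Cy3 on the negative control spots averaged 59.4 and 43.8 on the WT arrays, 43.8 and 59.4 on the MI arrays and 93.0 and 102.8 on the RQ arrays. With each array's own value subtracted, the Cy3 signal of miR-210 was 615 and 425 in WT, 150 and 174 in MI and 231 and 199 in RQ. MI then stood at 0.311 and RQ at 0.414 times WT, and RQ at 1.33 times MI rather than the 1.47 times of the unsubtracted signal. The whole Cy3 channel was also brighter on the RQ arrays: the median net Cy3 signal of the tested microRNAs was 298 and 296 there, 177 and 223 on the MI arrays and 245 and 192 on the WT arrays. Divided by that median, miR-210 was at 2.76 and 2.44 in WT, 1.10 and 1.04 in MI and 1.09 and 1.02 in RQ. On this scale WT stood apart and the MI and RQ arrays overlapped.

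After background correction and loess normalization within each array, the log2 ratio of Cy3 over Cy5 was 2.43 and 2.23 in WT, 1.17 and 1.27 in MI, and 1.54 and 1.28 in RQ. The order of the group means was WT (2.33 ± 0.14, SD, n = 2), RQ (1.41 ± 0.18) and MI (1.22 ± 0.07). Both WT arrays lay above all 4 mutant arrays, while RQ replicate 2 and MI replicate 2 were nearly level. The deposited ratios of the scanner software, on the log2 scale, were 3.09 and 2.93 in WT, 1.08 and 1.28 in MI, and 1.49 and 1.29 in RQ. They kept the same order with a wider gap to WT. Since the labels give wild-type embryoid bodies for both colours of the WT arrays, ratios near 0 would follow from the labels, and miR-210 was far from that. Its mean ratio on the WT arrays was the 30th highest of 294 tested microRNAs, whose median was 0.09, so no ratio is read here as a level against wild type and only differences between groups are given.

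**Figure D2:**
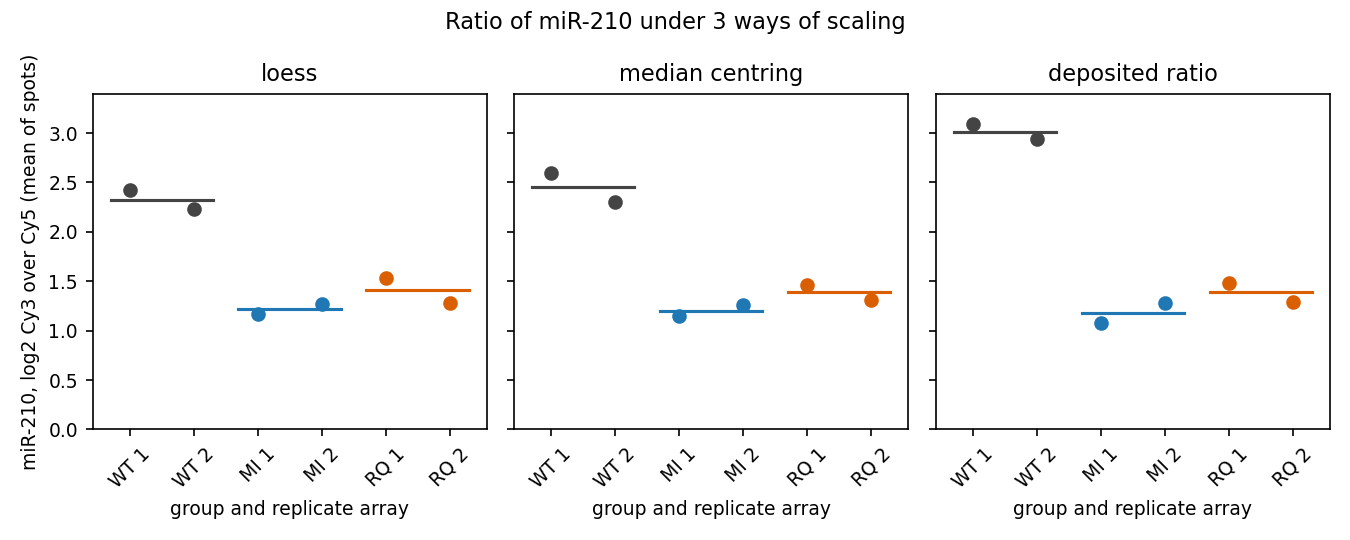
Log2 ratio of Cy3 over Cy5 for miR-210 on each array (points, mean of 4 spots) with the mean of each group (lines, n = 2), after loess, after median centring and as deposited. On each of these scales both WT arrays lie above the 4 mutant arrays, and the MI and RQ arrays lie next to each other, between 1.08 and 1.54 over the 3 scales.

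In the fit over all microRNAs, miR-210 was lower in MI than in WT by a log2 change of -1.11 ± 0.14 (SE), a level of 46.5% of WT. It was lower in RQ than in WT by -0.92 ± 0.14, or 52.9% of WT. Both changes chose miR-210, so they are given with no test and no interval, and their SEs take no account of that choice. Over all 294 tested microRNAs the median change was 0.11 in MI and 0.03 in RQ. In MI miR-210 was the 6th lowest of 294, and in RQ the 27th lowest. In MI, 27 microRNAs (9.18%) were called higher and 19 (6.46%) lower at a limma adjusted p under 0.05, and in RQ 22 (7.48%) higher and 41 (13.9%) lower. After loess miR-210 was thus nearer the end of the distribution in MI, although both changes share the WT arrays. These ranks hold for that scaling alone. With median centring 21 microRNAs were called lower in MI and 20 in RQ, and ranks on that scale are not given. The size of the 2 changes of miR-210 depended on the processing more than the direction did. With the scanner's processed signals, the changes were -1.83 in MI and -1.62 in RQ, that is 0.281 and 0.324 times WT. The direction was the same under all 16 alternatives for either mutant. That direction is what chose miR-210, and the alternatives reuse the same arrays, so the count adds no support. Some of them, such as the replicate block, cannot move the value.

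The difference between the 2 mutants was the comparison that had no part in choosing miR-210. RQ exceeded MI by 0.19 ± 0.14 (log2, SE), which did not pass the test (limma adjusted p = 0.46 over 294 microRNAs). The 95% interval ran from -0.16 to 0.53, so these arrays allow a level in RQ from 0.896 to 1.44 times that in MI. The median microRNA differed by -0.10 in this comparison, in which 9 microRNAs (3.06%) were called higher in RQ and 23 (7.82%) lower. Under the 17 alternatives the difference stayed between 0.06 and 0.31, and its adjusted p between 0.36 and 0.89. It was smallest without RQ replicate 1 (0.06) and largest without RQ replicate 2 (0.31). With the Cy3 signal scaled alone it was 0.06 ± 0.08 (limma adjusted p = 0.69), where the arrays read 8.08 and 8.12 in MI and 8.14 and 8.19 in RQ, against 9.35 and 9.23 in WT.

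**Figure D3:**
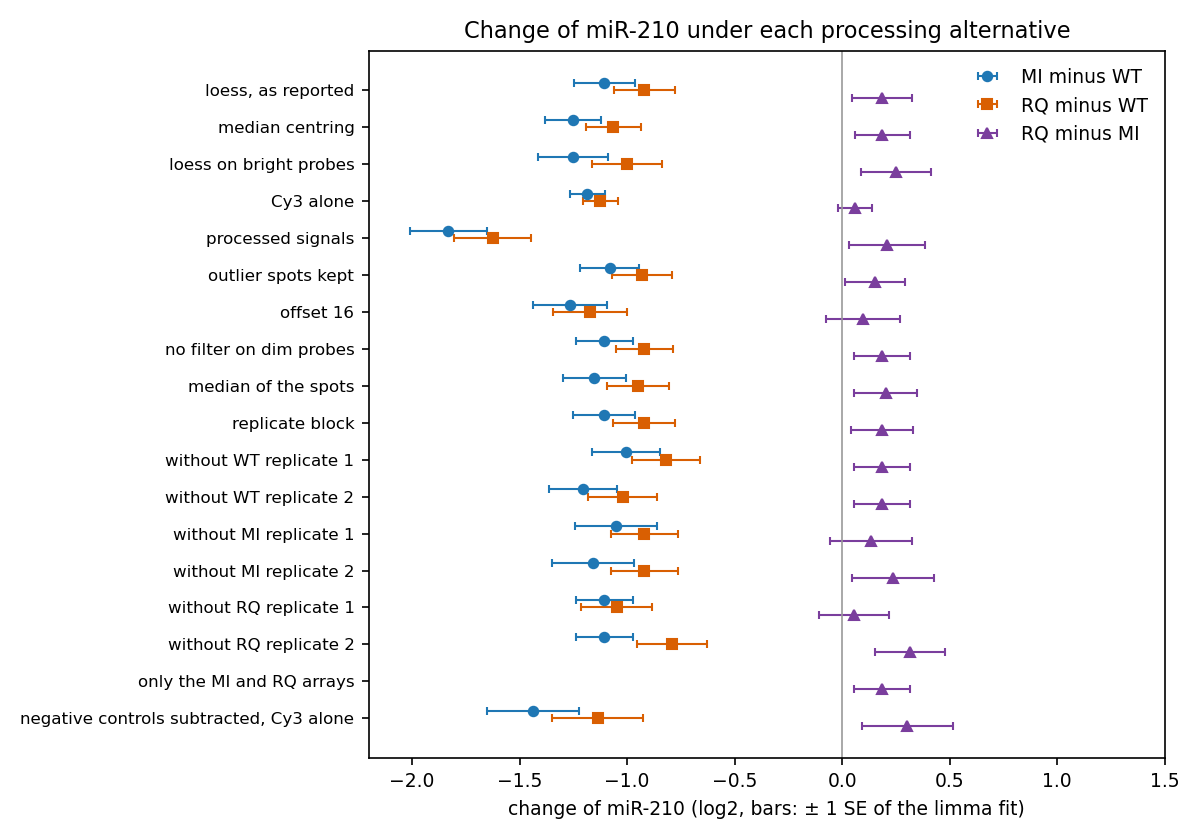
Fitted change of miR-210 (log2, bars ± 1 SE) for the 3 comparisons of groups under the reported processing and each alternative. The points of MI minus WT lie between -1.83 and -1.01 and those of RQ minus WT between -1.62 and -0.79. Those of RQ minus MI lie between 0.06 and 0.31, with bars that cross 0 under several alternatives, and this difference was called under none.

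The microRNAs with the pattern most like miR-210 were sought by the root mean square difference between log2 ratios over the 6 arrays, each centred on its own mean. The nearest of the other 293 were miR-499 at 0.16, miR-466 at 0.17, miR-467* at 0.19, miR-148a at 0.22 and miR-26a at 0.26, against a median of 0.57. Pearson's r with miR-210 across the 6 arrays was 0.95, 0.94, 0.93, 0.89 and 0.94 in that order, and 12 microRNAs had an r over 0.9. Since the 6 arrays fall into a high WT pair and 4 low mutant arrays, these values describe that split. With median centring, the same 5 took ranks 2, 1, 3, 8 and 4.

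Of these 5, 3 have an entry in the RefSeq table, and their mature sequences are shown with the seed in capitals to set beside that of miR-210.
miR-499-5p: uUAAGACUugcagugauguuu
miR-148a-3p: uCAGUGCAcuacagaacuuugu
miR-26a-5p: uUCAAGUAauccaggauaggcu
None of the 5 probes shared a run longer than 4 bases with the miR-210 probe, and none of the 3 seeds was that of miR-210. miR-499, a microRNA of heart and slow muscle encoded in a myosin gene, had log2 ratios of -0.51 and -0.59 in WT, -1.68 and -1.52 in MI, and -1.43 and -1.21 in RQ. Its net Cy3 signal was 218 and 164 in WT, 53.5 and 65.3 in MI, and 168 and 143 in RQ, before the higher Cy3 background of the RQ arrays is taken off. The MI values were close to the means of the negative control spots there, 43.8 and 59.4, so miR-499 was near the floor in MI. miR-466, of the cluster inside Sfmbt2, had ratios of 2.03 and 1.96 in WT, 1.18 and 1.05 in MI, and 1.01 and 0.89 in RQ, with RQ below MI rather than above it. miR-467*, of the same cluster, went in ratio from 1.29 and 0.97 in WT to 0.32 and 0.23 in MI and 0.08 and 0.05 in RQ. Its net Cy3 signal, with outlier spots kept, did not split that way. It was 310 and 222 in WT, 124 and 285.5 in MI, and 269 and 387.5 in RQ. Its net Cy5 signal was 56.8 and 51.1 in WT, 54 and 93.5 in MI, and 73 and 110 in RQ. The part of Cy5 and of outlier spots in its ratio was not tested. In the ratios of miR-499, miR-466 and miR-467*, both WT arrays lay above all mutant arrays, which the choice by pattern favoured. That choice also favoured RQ minus MI differences near that of miR-210, so they are given with no test. They were 0.28 ± 0.13, -0.17 ± 0.11 and -0.21 ± 0.14 (log2, SE) in the same order. miR-148a had a WT pair less close together, at -0.40 and -1.08, with MI at -1.43 and -1.51 and RQ at -1.31 and -1.78. Its RQ minus MI difference was -0.07 ± 0.26.

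**Figure D4:**
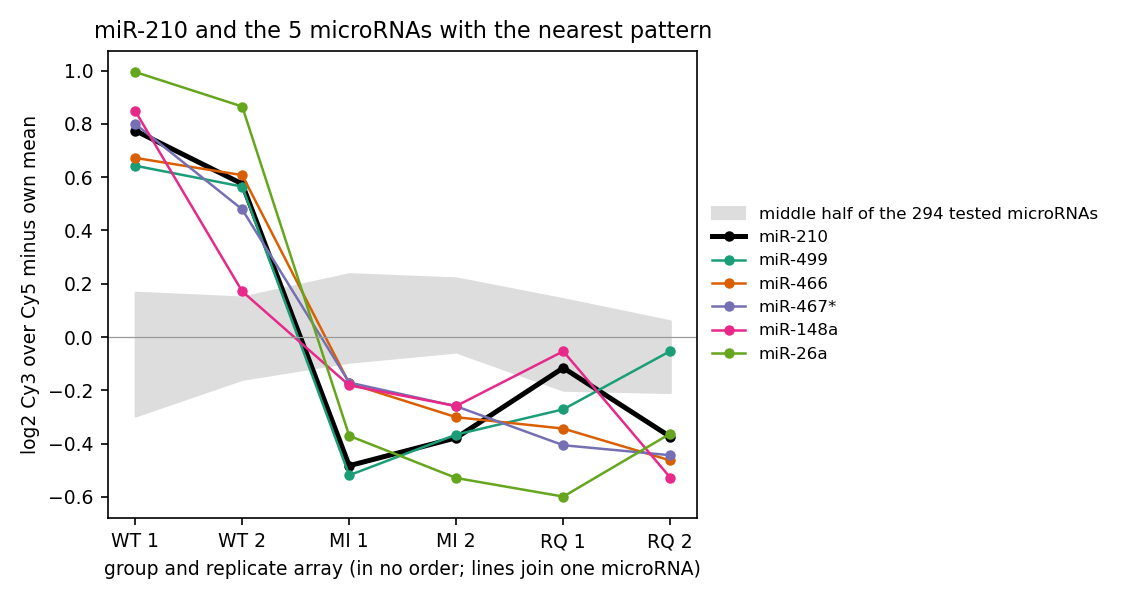
Log2 ratio of Cy3 over Cy5 on each array, minus the microRNA's own mean over the 6 arrays, for miR-210 (black) and the 5 microRNAs with the nearest pattern; the grey band holds the middle part of the 294 tested microRNAs, from the lower to the upper quartile. On both WT arrays miR-210 lies above the band, and on 3 of the 4 mutant arrays below it.

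miR-26a was both near to miR-210 in pattern and a microRNA reported to rise in low oxygen. Its log2 ratio was -0.50 and -0.63 in WT, -1.86 and -2.02 in MI, and -2.09 and -1.86 in RQ. It fell by 1.38 ± 0.13 in MI and by 1.41 ± 0.13 in RQ (limma adjusted p = 0.0037 and 0.0081). In RQ it was called under 3 of 4 other scalings. RQ and MI differed by -0.03 ± 0.13 (limma adjusted p = 0.88). The choice of miR-26a as near to miR-210 in pattern favoured these values, so its p-values add no support to that nearness. Its close relative miR-26b, with the same seed in RefSeq and 2 mismatches between the probes, did otherwise. miR-26b had ratios of -0.81 and -1.27 in WT, -2.19 and -2.35 in MI, and -0.95 and -0.68 in RQ. It fell in MI by 1.23 ± 0.19 (adjusted p = 0.011), was at 0.23 ± 0.19 in RQ against WT (adjusted p = 0.43), and was higher in RQ than in MI by 1.46 ± 0.19 (adjusted p = 0.015).

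To set miR-210 beside other microRNAs of the oxygen response, a list of 20 microRNAs reported to rise in low oxygen was used, of which 18 were on the array and all 18 were tested. In MI 3 rose, 3 fell and 12 were not called, where 9.18% of all microRNAs were called higher and 6.46% lower. The list's median change was -0.27 against 0.11 over all microRNAs, but it was -0.01 with median centring (3 higher, 2 lower) and also with negative controls subtracted from Cy3 alone (3 higher, 0 lower). The rises were those of miR-181a (1.28 ± 0.12), miR-181b (1.06 ± 0.13) and miR-181c (1.00 ± 0.11; limma adjusted p = 0.0037, 0.0060 and 0.0046), members of a family that acts in lymphocyte signalling, and they were called under all 4 other scalings. The falls were miR-26a and miR-26b, above, and miR-23a by 0.60 ± 0.14 (adjusted p = 0.042, called under 1 of 4 other scalings). Of those not called, the largest changes were in miR-21 (-0.58 ± 0.22), miR-125b (-0.56 ± 0.24) and miR-23b (-0.55 ± 0.15; adjusted p = 0.12, 0.14 and 0.058). Without MI replicate 1 there was 1 rise and 1 fall, without MI replicate 2 there were 3 rises and 1 fall, and without any one of the other 4 arrays 3 rises and 2 falls.

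The 181 family is shown because its members share a seed and moved together, with the seed in capitals.
miR-181a-5p: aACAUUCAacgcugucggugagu
miR-181b-5p: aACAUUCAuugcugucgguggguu
miR-181c-5p: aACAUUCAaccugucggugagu
The probes of miR-181a and miR-181b have 3 mismatches and may share signal. miR-181c has the bases of miR-181a with a G missing, so its probe may share signal with that of miR-181a as well. The count of mismatches was made without gaps and does not show this. miR-181a had log2 ratios of -3.84 and -3.62 in WT, -2.40 and -2.50 in MI, and -3.14 and -3.06 in RQ, so MI was highest and the RQ arrays lay between. The 4 MI and RQ arrays all lay above both WT arrays, whereas for miR-210 they lay below. The RQ minus MI difference of miR-210 was not called, so its order within the mutants is not set against this one.

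In RQ, 3 of the 18 rose against WT and 9 fell (7.48% and 13.9% over all microRNAs), with a list median of -0.54 against 0.03 over all microRNAs. After median centring instead of loess, 5 rose, 1 fell and the median was 0.04, so no direction can be given for the list. miR-155, a microRNA of activated immune cells, rose by 1.35 ± 0.15 (limma adjusted p = 0.0081, called under all 4 other scalings). Its net Cy3 signal was 48.9 and 56.0 in WT, 74.8 and 68.0 in MI and 608 and 530 in RQ. Its Cy5 signal was also higher on the RQ arrays, at 169 and 169, than on the other 4, at 98.5 to 106, and the part of that in the result was not tested. miR-181a rose by 0.62 ± 0.12 and miR-181b by 0.60 ± 0.13 (adjusted p = 0.018 and 0.025), called under 2 and 4 of 4 other scalings, which put miR-181a as low as 0.23. Of the falls, miR-27a at -0.85 ± 0.12 (adjusted p = 0.0081) was called under all 4 other scalings, miR-26a and miR-125b (-1.39 ± 0.24, adjusted p = 0.011) under 3, and miR-103 (-1.40 ± 0.23) and miR-107 (-1.35 ± 0.24) under 2 (adjusted p = 0.011 and 0.012). The others were miR-21 at -1.35, miR-23a at -1.06 and miR-23b at -0.92, each called under 1 of 4 other scalings, and miR-24 at -0.62, called under 0. miR-103 and miR-107, and likewise miR-23a and miR-23b, differ by 1 mismatch and may share signal. Not called were miR-106a at -0.47 ± 0.18, miR-181c at 0.38 ± 0.11 and miR-195 at -0.31 ± 0.17 (adjusted p = 0.11, 0.060 and 0.26). Without RQ replicate 1 there was 1 rise and 1 fall, and without RQ replicate 2 there was 1 rise and 8 falls.

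Between the mutants, where miR-210 was not called, 2 of the 18 were higher in RQ and 5 lower (3.06% and 7.82% over all microRNAs), with a list median of -0.45 against -0.10 over all; with median centring the median was 0.13 and the counts 2 and 1, and with outlier spots kept the counts were 2 and 2. The higher ones were miR-26b, above, and miR-155 by 1.11 ± 0.15 (limma adjusted p = 0.016), both called under all 4 other scalings. The lower ones were miR-107 at -1.11 ± 0.24, miR-103 at -1.10 ± 0.23, miR-27a at -0.91 ± 0.12, miR-181a at -0.65 ± 0.12 and miR-181c at -0.61 ± 0.11 (adjusted p between 0.015 and 0.037), of which miR-27a was called under all 4 other scalings and miR-181c under 0. The largest uncalled values were miR-125b at -0.83, miR-21 at -0.77 and miR-181b at -0.46. Without either MI array or either RQ array 0 of the 18 were called.

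**Figure D5:**
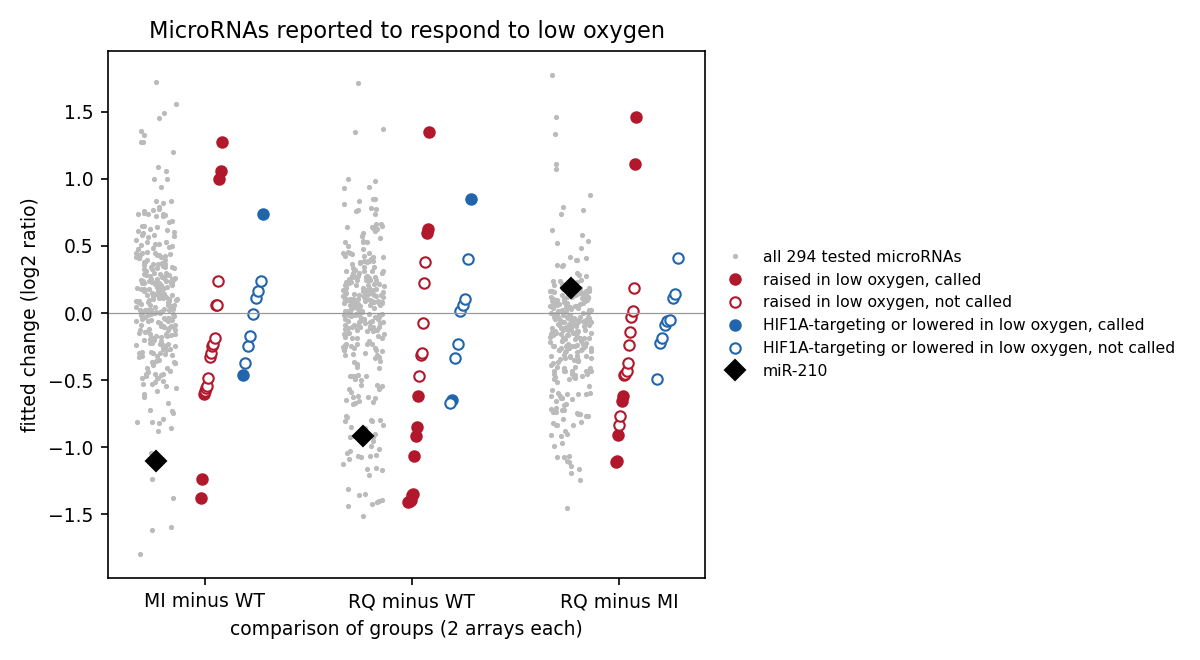
Fitted change (log2) in each comparison for all 294 tested microRNAs (grey), for 18 microRNAs reported to rise in low oxygen (red), for 9 that target HIF1A or are lowered in low oxygen (blue) and for miR-210 (black diamond); filled circles are called at a limma adjusted p under 0.05. Red circles lie on both sides of 0 in each comparison, from -1.38 to 1.28 in MI minus WT and from -1.41 to 1.35 in RQ minus WT.

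The opposite arm of the pathway, microRNAs that target the HIF1A messenger or are lowered in low oxygen, moved in both directions. Of 10 names, 9 were tested, and in either mutant 1 rose and 1 fell, beside 9.18% higher and 6.46% lower over all microRNAs in MI and 7.48% and 13.9% in RQ. The list's median change was -0.01 in MI and 0.01 in RQ, and it had no settled direction. With Cy3 alone it was -0.27 in MI (0 higher, 1 lower) and -0.32 in RQ (0 called), and with median centring -0.11 in MI (0 higher, 1 lower) and 0.30 in RQ (2 higher, 0 lower). miR-19a, a member of the miR-17-92 cluster, rose by 0.74 ± 0.16 in MI and by 0.85 ± 0.16 in RQ (limma adjusted p = 0.034 and 0.016), called under 1 and 2 of 4 other scalings. miR-17-5p, of the same cluster, fell by 0.46 ± 0.11 in MI and by 0.65 ± 0.11 in RQ (adjusted p = 0.040 and 0.011) but was called under 0 of 4 other scalings in either, and in RQ it was at 0.31 with median centring. The uncalled members with the largest changes were miR-200b at -0.37, miR-20a at -0.25 and miR-199a at 0.24 in MI, and miR-19b at -0.67, miR-92 at 0.40 and miR-20a at -0.34 in RQ. Between RQ and MI 0 of 9 were called, with miR-19b at -0.49, miR-92 at 0.41 and miR-199a at -0.23 the furthest from 0, and all 9 lay between -0.49 and 0.41. Leaving out any one array other than WT replicate 2 left 0 calls in MI, and in RQ 0 were left without RQ replicate 1 and 1, a fall, without RQ replicate 2. The probes of miR-19a and miR-19b differ by 1 mismatch and may share signal. So do those of miR-17-5p and of miR-106a from the list of raised microRNAs, which share a seed, so the lists are not wholly separate.

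Markers of cell types that an embryoid body can hold, or that could be left from the culture, were counted beside miR-210; over all microRNAs, 9.18% were called higher and 6.46% lower in MI, and 7.48% higher and 13.9% lower in RQ. Of 8 tested microRNAs of embryonic stem cells, 3 were lower in MI and 3 in RQ, and 0 higher in either, with values from -1.79 to 0.43 in MI and -1.51 to 0.28 in RQ. The count of lower calls was also 3 in MI with median centring and with Cy3 alone, while in RQ it was 1 with either. Of 3 erythroid microRNAs, 0 were called in MI and 1 was lower in RQ. The single endothelial one tested was not called in either mutant, at 0.57 in MI and 0.09 in RQ. Of 5 muscle and heart microRNAs, 1 was higher and 1 lower in MI and 2 lower in RQ, and of 6 fibroblast microRNAs, as in feeder layers, 1 was higher in MI and 2 were lower in RQ. With median centring these last 2 lists and the erythroid one held 1 call higher each in RQ, and 0, 0 and 1 lower in the order fibroblast, erythroid and muscle. The muscle and heart list holds miR-499, which was picked above by its pattern. The fibroblast list holds miR-21 and miR-199a, which are also in the oxygen lists, so these counts are not separate from those above. The part of the marked cell types in the values of miR-210 was not tested.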

How the data were processed

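Each scanner file, written by Agilent Feature Extraction (version 9.5.1.1, per the file headers), gives every spot's mean and local background intensity in both dyes. The authors' deposited log10 ratio of processed signals, turned to Cy3 over Cy5 and to log2, served as a description; the deposited log2 values in the text come from it. T4 RNA ligase attached the dyes, per the labels' protocols. Intensities were corrected by normexp (offset 50) and normalised by loess within arrays in limma 3.58.1 under R 4.3.3, with control and outlier spots at no weight. Outlier spots were removed and the spots of a probe averaged. Tested were the 294 of 334 probes for which a share over 0.5 of the spots stood well above background, in one dye or the other, on 2 or more arrays. Groups were compared with lmFit and eBayes on all 6 arrays (3 residual and 2.99 prior degrees of freedom), adjusted by Benjamini-Hochberg over the 294 and called at an adjusted p under 0.05. The fit was tested on simulated data. The number of arrays limits the precision.

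Alternatives were median centring, loess on bright probes, Cy3 alone, processed signals, outlier spots kept, an offset of 16, no filter on dim probes, the median of the spots, a replicate block, the MI and RQ arrays alone and leaving out each array. miR-210 and all lists were chosen with earlier results of these data known. Named were miR-210, the 5 microRNAs nearest in pattern, the 3 probes with the longest shared run, and every called member of the oxygen lists with up to 3 uncalled ones per comparison. Files list 1932 of 14712 features, and the others were not analysed here.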

Additional observations from a re-analysis of the deposited data

How the results depend on the processing

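miR-210 kept its direction in all 3 comparisons under each alternative, and RQ minus MI was called under none of its 17. The direction against WT is what chose miR-210, and some alternatives cannot move the value, so this is a description and not support. Leaving out 1 array at a time gave log2 changes of -1.21 to -1.01 for MI minus WT, -1.05 to -0.79 for RQ minus WT and 0.06 to 0.31 for RQ minus MI. For MI minus WT, the value moved from -1.11 to -1.25 with median centring and with loess on bright probes, to -1.27 with an offset of 16, to -1.83 with processed signals and to -1.44 with negative controls subtracted and Cy3 alone, an alternative chosen after seeing the data. For RQ minus WT, it moved from -0.92 to -1.12 with Cy3 alone, -1.17 with an offset of 16, -1.62 with processed signals and -1.14 with negative controls subtracted. The smaller offset widened both changes; other causes were not tested. Whether replicate numbers pair the samples was not tested and cannot be settled from these arrays. Deviations of same-numbered arrays correlated at 0.18 (WT and MI), 0.12 (WT and RQ) and 0.04 (MI and RQ). With a replicate block the changes were -1.11 ± 0.14, -0.92 ± 0.14 and 0.19 ± 0.14 (limma adjusted p for RQ minus MI 0.48), and 39, 59 and 38 microRNAs were called in place of 46, 63 and 32.

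Counts of called microRNAs ranged, with 1 array left out, from 6 to 63 for MI minus WT, 5 to 60 for RQ minus WT and 0 to 48 for RQ minus MI, where a lone array is assumed to vary like the other groups. With negative controls subtracted, 16 (MI minus WT) and 39 (RQ minus WT) were called, and for RQ minus MI 6 with loess on bright probes and 14 with outlier spots kept. The share of calls that were higher was 58.7% for MI minus WT (44.7% with median centring, 31.6% with Cy3 alone, 28.1% with processed signals), 34.9% for RQ minus WT (70.1% with median centring) and 28.1% for RQ minus MI (61.3%, 48.5% and 40.7% in the same order, and 66.7% with loess on bright probes). Median changes over all microRNAs moved by over 0.1 with median centring (0.16 for RQ minus MI), Cy3 alone (-0.11 for MI minus WT) and processed signals (-0.16 and -0.30 for the mutants against WT). Signal over background limits the ratio of miR-210 through its dim Cy5 channel.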
